A study of Saccharomyces cerevisiae with 6 samples.

Results

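The response of budding yeast to rapamycin in MDN medium was read from the 2 arrays titled for cells without and with rapamycin in MDN, and from every probe that had a value on both. These probes numbered 5618 of the 6210 in the table, on 2 of the series' 6 arrays. A further 491 probes had a value on only 1 of the MDN arrays and 101 on neither. Averaging probes of the same gene left 5585 members, of which 5080 were named genes and 505 were probes unnamed here. Each array set poly(A) RNA of wild-type Saccharomyces cerevisiae S288c, the reference laboratory strain, grown in MDN with rapamycin and carrying Cy5, against RNA of the same strain grown in MDN alone and carrying Cy3. Another 2 arrays set S288c in YPD, a rich medium of yeast extract, peptone and glucose, with rapamycin (Cy5) against YPD alone (Cy3), and served here for comparison. A single array set MDN (Cy5) against YPD (Cy3) without drug and another set MDN (Cy5) against SCD (Cy3). The labels name MDN and SCD only by these abbreviations, and they give neither the dose of rapamycin, nor its duration, nor whether arrays came from separate cultures. The study asked which genes respond to TOR during growth in MDN.

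TOR is a protein kinase that couples growth to the supply of nutrients. Rapamycin, a macrolide, binds the prolyl isomerase Fpr1, and this pair of molecules inhibits TOR complex 1. In yeast, active TOR complex 1 favours the production of ribosomes, and it holds back autophagy, stress genes and the use of poor nitrogen sources, in part by keeping the GATA factors Gln3 and Gat1 away from their target genes.

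Values below are log2 ratios of rapamycin over untreated, and a pair of values is always MDN array 1 and then MDN array 2. A value after ± is the standard error of the limma fit with n = 2 arrays. Rose, fell and called refer to an adjusted p under 0.05 in limma with Benjamini-Hochberg adjustment over all 5488 genes and unnamed probes that had a value on all 4 rapamycin arrays. Since separate cultures are not stated, the p-values cover no more than array-to-array spread, which may be technical. Cy5 over Cy3 is the likely direction of the deposited ratios and is not stated with them, so all directions would turn over together if the ratio ran the other way. No array had its dyes swapped, and a probe's own dye effect remains in its value. Ratios are close to centred on each array and hold no absolute level. A change in total messenger RNA per cell or in the number of cells can therefore not be told apart from no change, and no marker level could be set against the strain label.

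The MDN arrays gave nearly the same picture of the response. Across the 5618 probes they correlated with r = 0.966, with probes not being independent replicates, and the median absolute gap between them was 0.133. Gaps were under 0.5 for 94.6% of probes and over 1 for 33 probes. The gap was wider where the response was large, with a median of 0.322 over the 87 probes below -4 against 0.127 over the 4844 probes between -1 and 1. Among the named genes tested, the gap was widest in RPL31A at -1.89 and -4.64. RPL21A at -2.84 and -5.06 and RPS22A at -4.64 and -6.64 came next. All 3 encode ribosomal proteins and were far below 0 on both arrays. DBP7, an RNA helicase of 60S assembly, followed at -2.64 and -1.06. YPS7, a gene of the yapsin protease family, was the only one of these 5 whose arrays differed in sign, at -1.43 and 0.32. It was not called (adjusted p = 0.29 in limma). STU2, not tested for lack of a YPD value, also had a wide gap and differed in sign, at 0.31 and -2.06.

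**Figure D1:**
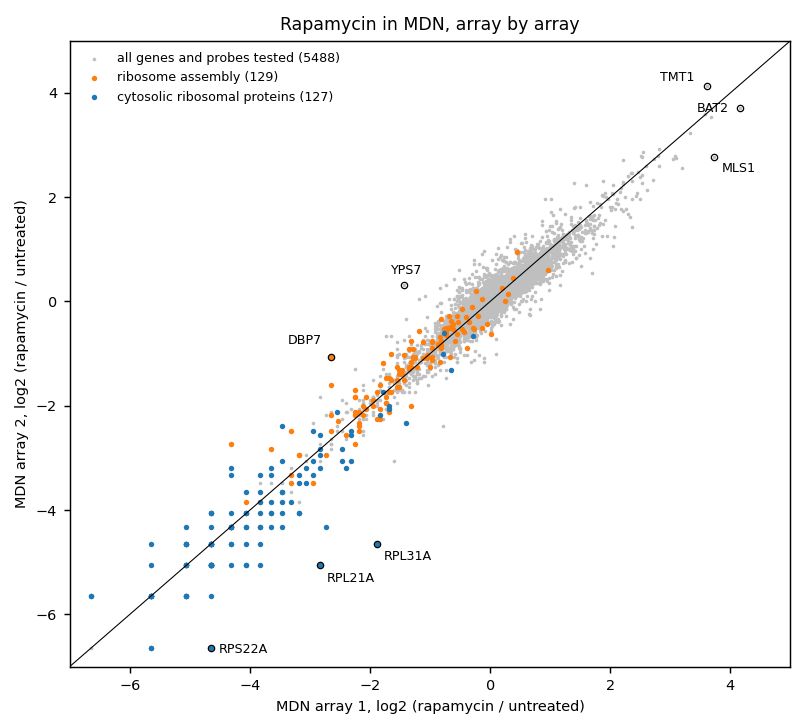
MDN array 1 (x axis) against MDN array 2 (y axis), both as log2 ratios of rapamycin over untreated, for the 5488 genes and probes tested; the line marks equal values. The means of the 73 large and 54 small subunit ribosomal protein genes reach from -0.48 to -6.14. Among named genes, RPL31A, RPL21A, RPS22A, YPS7 and DBP7 lie farthest from the line.

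Rises outnumbered falls in MDN, but changes of at least 2-fold were more often falls. Of the 5488 tested, 1690 rose, which is 30.8%, and 1278 fell, which is 23.3%. With the arrays centred on their medians the numbers were nearly even, at 1498 and 1460. Most rises were small, with a median of 0.58 among the genes that rose, and the smallest change that passed the test was 0.24. At least 2-fold rises made up 5.25% of those tested and 2-fold falls 8.58%, or 471. At least 4-fold changes split into 43 higher (0.784%) and 223 lower (4.06%), and at least 8-fold changes into 6 higher (0.109%) and 145 lower (2.64%). Both arrays read at least 2-fold higher for 236 (4.3%) and at least 2-fold lower for 431 (7.85%). The 6 genes at the top were BAT2, TMT1, YHI9, DAL5, DIP5 and MLS1, and no gene rose 16-fold, whereas 87 genes and probes (1.59%) fell that far. Genes known only by a locus tag rose in 158 of 378 cases (41.8%) and fell in 50 (13.2%), and genes with a standard name rose in 1430 of 4618 (31%) and fell in 1104 (23.9%). The difference between these classes was not tested.

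How firmly a call stood depended on its size. Without MDN array 1 the calls numbered 540 (201 higher and 339 lower) and without MDN array 2 they numbered 656 (281 and 375). Of the 1402 genes that rose by less than 2-fold, 29 kept their call without MDN array 1 and 72 without MDN array 2. Of the 245 that rose between 2- and 4-fold, 132 and 170 kept it, and of the 43 that rose at least 4-fold, 38 did in either case. Among genes that fell, 18 and 31 of 807 kept their call below 2-fold, 130 and 147 of 248 between 2- and 4-fold, and 188 and 196 of 223 at 4-fold or more. A named gene under 2-fold therefore rests on both arrays in nearly all cases, and list counts are given below with each array left out.

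The highest genes come from several corners of metabolism. BAT2, the cytosolic branched-chain transaminase, read 4.15 and 3.70, and TMT1, a methyltransferase acting on trans-aconitate, read 3.62 and 4.13, so that each was the highest gene of 1 array. MLS1, malate synthase of the glyoxylate cycle, had the widest gap of the 15 highest at 3.73 and 2.76. HMX1, heme oxygenase, which breaks down heme and frees its iron, read 2.82 and 2.93. PDH1, a mitochondrial protein linked to the methylcitrate cycle of propionate breakdown, read 2.74 and 2.73, with a standard error of 0.31 that came from its YPD arrays. PCL5, a cyclin of the Pho85 kinase that directs turnover of the activator Gcn4, read 2.55 and 2.87. MCH4, related to monocarboxylate transporters, read 2.81 and 2.60, and YNR068C, an uncharacterized gene, read 2.80 and 2.79. These genes also rose in YPD, where MCH4 stood at 3.63, PDH1 at 3.22, HMX1 at 3.17, PCL5 at 3.06 and YNR068C at 2.76. YOR338W, another gene without an assigned role here, read 3.19 and 2.57 in MDN against 1.13 in YPD.

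At the low end, the 15 lowest genes were 13 genes of ribosomal proteins, ASC1 and the probe annotated as YBT1. RPS31, whose product is a fusion of ubiquitin and a small subunit protein, read -5.64 on both arrays, as did RPS4A and RPS4B. A ratio is kept to 2 decimals in the table, so -5.64 is a ratio of 0.02 and -6.64 a ratio of 0.01, and many genes share these steps. RPS1B read -5.06 and -5.64. RPL2B, RPL8A, RPS7A and RPS19A shared its mean of -5.35, so the last of the 15 places is a tie. In YPD the 15 genes lay between -5.35 for RPS22A and -3.41 for RPS1B. Genes picked for their MDN values are likely to be nearer to 0 in YPD, so nothing is read from that difference at either end. YBT1, a bile acid transporter of the vacuole, read -6.64 on both arrays, and the identity of its probe could not be checked.

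**Figure D2:**
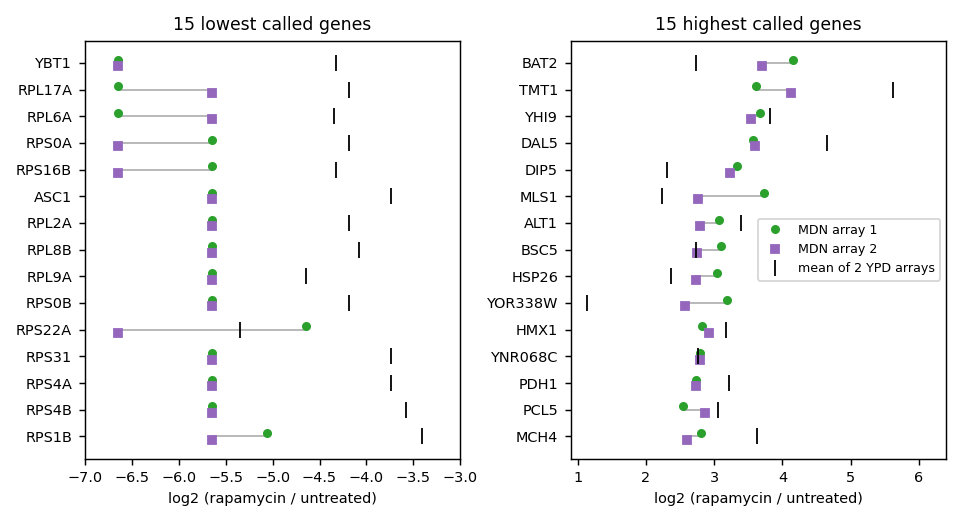
Log2 ratio of rapamycin over untreated (x axis) on MDN array 1 and MDN array 2 for the 15 lowest and 15 highest called genes, with the mean of the 2 YPD arrays as a bar. The 15 lowest lie at or below -4.64 on each MDN array, with YPD means closer to 0 than their MDN means; among the highest, BAT2, DIP5, MLS1 and YOR338W lie right of their YPD means and TMT1 and DAL5 left of theirs.

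The transcripts of TOR itself and of its partners moved little. Of 21 measured genes of the TOR complexes and the GTPase regulators upstream, 10 rose, 1 fell and none changed 2-fold, with a median of 0.42 against 0.06 over all genes. KOG1, the raptor subunit of TOR complex 1, read -0.56 and -1.09 and fell. TOR1, a gene for the kinase itself, read -0.10 and -0.25 and was not called. Higher were SLM4 and MEH1, subunits of the EGO complex that activates TOR complex 1 at the vacuole, at 0.83 ± 0.08 and 0.70 ± 0.08, and MTC5, a subunit of the SEA complex, at 0.76 ± 0.09. In the phosphatase branch below TOR, 5 of 19 genes rose (26.3%) and 2 fell (10.5%), below the 30.8% and 23.3% of all genes. TAP42, the regulatory subunit that TOR controls, read 0.57 and 0.82, and the catalytic subunits PPH21 and PPH22 fell, to -0.77 ± 0.13 and -0.57 ± 0.09. PPH21 differed from YPD by -0.85 ± 0.19, a called difference. NPR1, the kinase that stabilises nitrogen permeases when TOR is inactive, read 0.40 and 0.54. Without MDN array 1 the only gene of the TOR complex list called was VAM6, a guanine exchange factor of the EGO GTPases, which read -0.10 and -1.09, was not called on both arrays, and was picked out after its values were seen. Without MDN array 2 none was called. In the phosphatase branch none was called without either.

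No measured regulator of ribosomal gene transcription was called lower in MDN. Of 13 measured, 4 rose, which at 30.8% equals the share of all genes, and none fell, against 23.3% of all genes. In YPD 1 rose and 6 fell, where 34.3% and 32% of all genes did. In 6 the difference between media was called, always higher in MDN, against 14.9% of all genes. SCH9, the kinase that carries the TOR signal to ribosome synthesis, read 0.55 and 0.41 in MDN and stood at -0.75 in YPD. FHL1, the forkhead factor bound at ribosomal protein genes, was at 0.31 ± 0.08 in MDN and -0.33 in YPD. YAK1, a kinase that opposes growth, rose by 0.78 ± 0.09, close to its 0.90 in YPD. SFP1, an activator of ribosome genes, read 0.25 and -0.15, and IFH1, the coactivator of Fhl1, read -0.25 and -0.18, neither of them called. Without MDN array 1 no regulator was called, and without MDN array 2 YAK1 was the only one called.

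Against these small changes stood the genes for the ribosome's parts. All 54 measured small subunit genes fell and 72 of 73 large subunit genes did, with medians of -4.22 and -4.32. The difference from YPD was called for 24 and 30 of them, each time lower in MDN, while YPD medians were -3.46 and -3.58. With MDN array 1 or MDN array 2 left out, 46 or 47 small subunit genes and 59 or 60 large subunit genes kept a call. Most ribosomal proteins have a pair of near-identical genes, and their probes may share signal. In spite of that, the pairs did not all read alike. Of 51 pairs with both members measured, 21 lay within 0.5 of each other and 18 differed by more than 1, with a median gap of 0.678. Wide gaps were seen in RPL43, where the A copy stood at -3.58 and the B copy at -0.68, and in RPL4 at -0.98 and -3.74. At the other extreme, both RPS4 genes stood at -5.64.

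Mitochondrial ribosomal proteins, which build a separate ribosome inside the organelle, did not share this fall. Of 65 measured, 25 fell, 3 rose and none changed by 2-fold, with a median of -0.22 and a range from -0.99 for RSM22 to 0.46 for MRPL36. Their share of falls was 38.5%, above the 23.3% of all genes, but with small sizes. MRPL19 read -0.86 and -1.09. Those that rose were MRPL36, MRP20 and MRPS28, at 0.46, 0.36 and 0.29. Without MDN array 1, 2 of the 65 were called lower and none higher, and without MDN array 2 none was called. Mitochondrial import genes behaved alike in size, with 10 of 26 lower and 3 higher. TIM23, the channel of the inner membrane, read -1.09 and -0.81, and PAM18, a cochaperone of the import motor, fell by 1.20 ± 0.08. Import genes still called lower numbered 2 without either MDN array, and none was then called higher.

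Ribosome assembly genes fell less far in MDN than in YPD. Of 56 genes for the small subunit processome and 40S assembly 47 fell and 2 rose, with a median of -1.31 in MDN and -2.19 in YPD. Of 73 assembly factors of the 60S subunit 59 fell and 1 rose, with medians of -1.17 and -1.90. The difference between media was called for 22 and 39 of them, each time higher in MDN, whereas each called difference of a ribosomal protein was lower. Over all genes, 14.9% had a difference called higher in MDN. Core proteins of the box C/D snoRNPs were among the lowest in the first of these lists. NOP58 read -4.06 and -3.84, NOP56 read -3.84 on both arrays, and SNU13 read -3.32 and -3.47, with YPD means of -3.56, -3.85 and -3.19. Here the difference between media was not called. UTP13 read -4.32 and -2.74, with a standard error of 0.80 that came mostly from its YPD arrays. In 60S assembly, NOG2, a GTPase, read -3.64 and -2.84, and the helicase DBP2 and the pseudouridine synthase CBF5 both averaged -3.06. The genes that rose against their lists were UTP20 at 0.42, RRP7 at 0.78 and RPF1 at 0.69. On leaving out MDN array 1 or MDN array 2, 18 or 20 small subunit and 27 or 29 large subunit factors were called lower, and none higher.

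Genes of all 3 polymerase lists fell more often than they rose, with medians of -0.42 for polymerase I, -0.13 for polymerase III and -0.63 for polymerase II. Of 15 genes for RNA polymerase I, which transcribes the ribosomal RNA precursor, 9 fell and 1 rose. RPA43 read -3.32 and -3.18, and RPA49 and RPA34 averaged -2.69 ± 0.16 and -2.36 ± 0.17. RRN5, a factor that helps polymerase I start, read 0.58 and 1.29 and rose. Of 22 genes for polymerase III and its factors 10 fell and 5 rose. The genes that rose were BRF1, TFC1, TFC3 and TFC6, which encode its initiation factors, and MAF1, its repressor, which read 0.71 and 0.60. Of 6 core subunits of polymerase II, which transcribes messenger RNA, 5 fell but none by 2-fold, with RPB7 the lowest at -0.81 and -0.64. When MDN array 1 or MDN array 2 was dropped, 4 or 5 polymerase I genes and 1 or 3 polymerase III genes were called lower. In the same fits 1 or 0 polymerase I genes and no polymerase III gene were called higher, and no polymerase II gene was called.

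Among translation factors, 23 of 26 initiation factors and 10 of 13 elongation and termination factors fell, with medians of -0.90 and -1.24. YEF3, elongation factor 3, read -2.25 and -2.18 and its rarely used paralog HEF3 read 0.53 and 0.67. EFT1, a gene for elongation factor 2, read -2.32 and -2.06 in MDN against -1.12 in YPD, a called difference. RLI1, which recycles ribosomes, averaged -2.09 ± 0.08. The list of ribosome-associated chaperones, which includes ASC1, fell in 7 of 7 members, with SSB2, an Hsp70 of nascent chains, at -3.18 and -3.32, and EGD1 and EGD2, subunits of the nascent polypeptide-associated complex, at -1.39 and -1.28. Of 22 cytosolic aminoacyl-tRNA synthetases 19 fell, and in 7 the difference between media was called, lower in MDN. DED81, the asparaginyl-tRNA synthetase, read -1.43 and -1.51 in MDN and stood at -0.16 in YPD. GUS1, the glutamyl-tRNA synthetase, was the only one to rise, to 0.29 ± 0.08. After removal of MDN array 1 or MDN array 2, 10 or 10 initiation factors, 7 or 8 elongation and termination factors, 3 or 3 ribosome chaperones and 8 or 8 synthetases were called lower. No gene of these lists was then called higher.

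**Figure D3:**
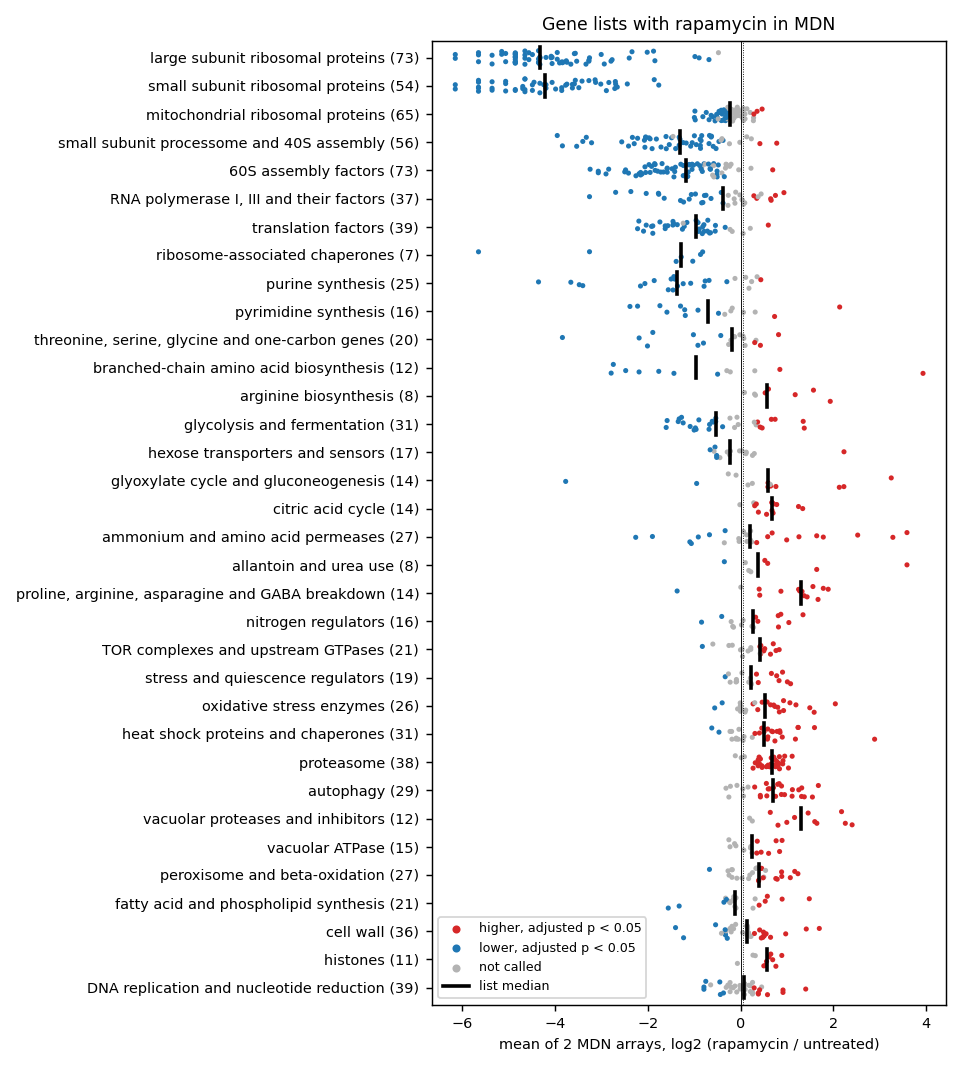
Each point is a gene, at its mean log2 ratio of rapamycin over untreated on the 2 MDN arrays (x axis), in 34 gene lists (rows, with the number of genes tested); red and blue mark adjusted p under 0.05, grey no call, and black bars list medians, with the median of all genes as a dotted line at 0.06. Medians run from -4.32 for large subunit ribosomal proteins to 1.31 for vacuolar proteases.

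Genes for poor nitrogen sources gave a divided picture in MDN. Of the 10 nitrogen-regulated permeases measured, 7 rose, 6 of them at least 2-fold, and 1 fell. DAL5, the allantoate permease, read 3.57 and 3.59, DIP5, which imports glutamate and aspartate, read 3.33 and 3.23, and OPT2, an oligopeptide transporter, read 2.71 and 2.33. GAP1, the general amino acid permease, went the other way, at -0.76 and -1.06. The ammonium permeases did not rise. MEP1 fell by 0.33 ± 0.08 and MEP2 read 0.32 and 0.11 without a call, whereas in YPD MEP1, MEP2 and MEP3 all rose. On the single array of MDN over YPD without drug, GAP1 read 6.75 and MEP2 6.30. In YPD, GAP1 stood at 6.18 with rapamycin and MEP2 at 5.38. Another 14 permeases were grouped here as amino-acid-induced, a label that these data do not test and that need not hold for each member. Of these, 5 fell and 3 rose. The lowest included MUP1, for methionine, at -2.40 and -2.12, and GNP1, for glutamine, at -1.74 and -2.06. MMP1, for S-methylmethionine, had a mean of -1.09. BAP2, for branched-chain amino acids, read 1.13 and 0.86. With either MDN array removed (array 1 or array 2), 4 or 5 nitrogen-regulated permeases were called higher and 1 or 0 lower. Of the permeases grouped as amino-acid-induced, 3 or 2 were then called lower and 0 or 1 higher. GAP1 lost its call without MDN array 2, and MEP1 without either.

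Catabolic genes differed by substrate. In the list for proline, arginine, asparagine and GABA breakdown 12 of 14 rose, 9 at least 2-fold, with a median of 1.30. Of the arginine breakdown genes CAR1 and CAR2 were not among the 14, having a value on MDN array 1 alone, where CAR1 read -0.38 and CAR2 0.11, against 3.13 and 2.94 for CAR1 on the YPD arrays. The GABA genes led the list, with the succinate semialdehyde dehydrogenase UGA2 at 2.02 and 1.76, the permease UGA4 at 1.66 and 1.90, and the transaminase UGA1 at a mean of 1.67 ± 0.28. Their activator UGA3 read 1.38 and 1.31. ASP1, the cytosolic asparaginase, fell by 1.37 ± 0.11. ASP3-3, of the near-identical ASP3 genes that specify the secreted asparaginase and may share probe signal, read 1.86 and 1.26. Allantoin and urea genes moved less, with 4 of 8 higher, 1 lower and a median of 0.37 against 3.35 in YPD. DUR3, the urea permease, read 1.71 and 1.57, but DAL2, allantoicase, read -0.36 and -0.34, and DAL3, ureidoglycolate lyase, read 0.34 and 0.10 with no call. In 7 of these 8 genes the difference between media was called, lower in MDN, against 14.6% of all genes. On removal of MDN array 1 or MDN array 2, 3 or 2 breakdown genes were called higher and 1 or 1 lower, and 1 or 2 allantoin and urea genes higher with none lower.

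The regulators of these genes moved apart as well. GAT1, a GATA activator, read -0.74 and -0.94 and fell, while it stood at 1.16 in YPD. DAL80, a GATA repressor, read 0.91 and 0.72, against 3.85 in YPD. DAL82, coactivator of the allantoin genes, read 1.21 and 0.87, and STP2, an activator of amino acid permease genes, read 0.83 and 0.90. Of 16 regulators, 7 rose (43.8%) and 2 fell (12.5%), against 30.8% and 23.3% of all genes. In 8 the difference between media was called, each time lower in MDN, against 14.6% of all genes. With MDN array 1 or MDN array 2 left out, 3 or 4 were called higher and 1 or 0 lower. DAL80 lost its call without MDN array 1, and GAT1 without MDN array 2.

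Enzymes that make glutamate, glutamine and asparagine rose in 6 of 8 cases, and ASN2 fell. IDP1, the mitochondrial NADP-dependent isocitrate dehydrogenase, which supplies 2-oxoglutarate, read 2.36 and 2.46. GDH3, a glutamate dehydrogenase, read 1.02 and 1.72, while its paralog GDH1 read -0.06 and -0.12 with no call. GLN1, glutamine synthetase, rose by 0.65 ± 0.08 against 2.26 in YPD. Without either MDN array 2 genes of the list were called higher and none lower.

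Amino acid synthesis split by pathway and often within it. Arginine genes rose in 5 of 8 cases with none lower. ARG4, argininosuccinate lyase, read 2.08 and 1.78, ARG1, argininosuccinate synthetase, rose by 1.57 ± 0.08, and ARG7 read 1.16 and 1.19. Branched-chain genes fell in 7 of 12 cases, 6 of them at least 2-fold, and rose in 2, with a median of -0.96 in MDN and 0.65 in YPD. LEU2, isopropylmalate dehydrogenase of leucine synthesis, read -2.64 and -2.84, and ILV5, a reductoisomerase, read -2.47 on both arrays. Aromatic genes rose in 5 of 13 and fell in 1. TRP3 read 0.93 and 1.14. Lysine genes fell in 6 of 9 and rose in 2, namely LYS5 at 0.60 ± 0.10 and ARO8 at 0.66 ± 0.12, where LYS5 activates the reductase Lys2 and ARO8 is a transaminase that aromatic synthesis also uses. LYS9 and LYS12 both read -2.32 and -2.56. Histidine genes were evenly split, with HIS3 at 0.54 ± 0.08 and HIS6 at -0.89 ± 0.11. Sulfur genes, with 14 of 29 lower and 4 higher, held a strong exception in STR2, a cystathionine gamma-synthase, at 1.96 and 1.97, while MET3, ATP sulfurylase, read -1.29 and -1.43 and SAM1, an S-adenosylmethionine synthetase, read -1.40 and -1.36. GCN4, the activator of many of these pathways, rose slightly, at 0.34 and 0.21 (adjusted p = 0.0473 in limma), and lost its call without either MDN array. On leaving out MDN array 1 or MDN array 2, genes called higher numbered 3 or 3 for arginine, 1 or 2 for branched-chain, 1 or 1 for sulfur and none for aromatic, lysine and histidine genes. Genes called lower numbered 6 or 6 for branched-chain, 3 or 3 for lysine, 3 or 4 for sulfur and none for the other lists of this paragraph.

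Genes of one-carbon metabolism and of purine synthesis, which draw on the same folate carriers, held some of the lowest values outside the ribosome. Among 20 threonine, serine, glycine and one-carbon genes 8 fell, 5 of them 2-fold, and 3 rose. SHM2, the cytosolic serine hydroxymethyltransferase, read -3.84 on both arrays. GCV2, glycine decarboxylase, read -1.94 and -1.84, and the folate enzymes MIS1 and MTD1 read -2.18 on both arrays, and -2.12 and -1.89. Of 16 de novo purine genes 12 fell and none rose, and of 9 genes of the guanine branch and salvage 7 fell. ADE17 read -3.47 on both arrays, ADE4, the committing enzyme, averaged -1.86 ± 0.14, and ADE1 and ADE2 averaged -1.36 ± 0.13 and -1.42 ± 0.08. APT2 alone rose, by 0.44 ± 0.08. In pyrimidine synthesis 9 of 16 fell and 2 rose. URA1, dihydroorotate dehydrogenase, read -2.64 and -2.12 and the uridine permease FUI1 read -2.25 and -2.18, but URA10, the minor orotate phosphoribosyltransferase, read 2.04 and 2.23. When MDN array 1 or MDN array 2 was dropped, 4 or 5 one-carbon list genes, 5 or 6 de novo purine genes, 5 or 6 guanine and salvage genes and 4 or 6 pyrimidine genes were called lower, and none of these lists had a gene called higher.

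Some related enzymes moved in opposite directions. Of 102 listed pairs of related genes both members were tested in 90, of which 15 were called with opposite signs, 28 with the same sign, and 47 had 1 or no member called. Since 30.8% of all genes rose and 23.3% fell, opposite calls also occur between unrelated genes, and the count is not read as a property of the pairs. BAT1, the mitochondrial branched-chain transaminase, read -2.84 and -2.74, while cytosolic BAT2 read 4.15 and 3.70, a gap of 6.72 between their means. The alanine transaminases ALT1 and ALT2 stood at 2.93 ± 0.10 and -0.73 ± 0.11, and the asparagine synthetases ASN1 and ASN2 at 1.45 ± 0.08 and -0.73 ± 0.08. In serine synthesis SER3 rose by 0.82 ± 0.10 and SER33 fell by 0.80 ± 0.08. The external NADH dehydrogenases were NDE2 at 2.36 and 1.42 and NDE1 at -0.86 and -1.22. The CTP synthases URA7 and URA8 read -1.59 ± 0.19 and 0.73 ± 0.09, and the aromatic pathway's entry enzymes ARO3 and ARO4 read 0.50 ± 0.08 and -1.15 ± 0.11. In carbon metabolism the pyruvate kinases CDC19 and PYK2 stood at -1.27 ± 0.10 and 0.66 ± 0.08, and ADH1 and the mitochondrial ADH3 at -1.58 ± 0.11 and 0.37 ± 0.11. The glucan synthases FKS1 and GSC2 stood at -0.33 ± 0.09 and 1.41 ± 0.16. Transaldolase TAL1 and its paralog NQM1, the glycogen synthases GSY1 and GSY2, and the aldehyde dehydrogenases ALD6 and ALD5 against ALD4 completed the set with YEF3 and HEF3 above. BAT1 and BAT2 were the only pair of the 15 in which both members kept their calls when either MDN array was left out.

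**Figure D4:**
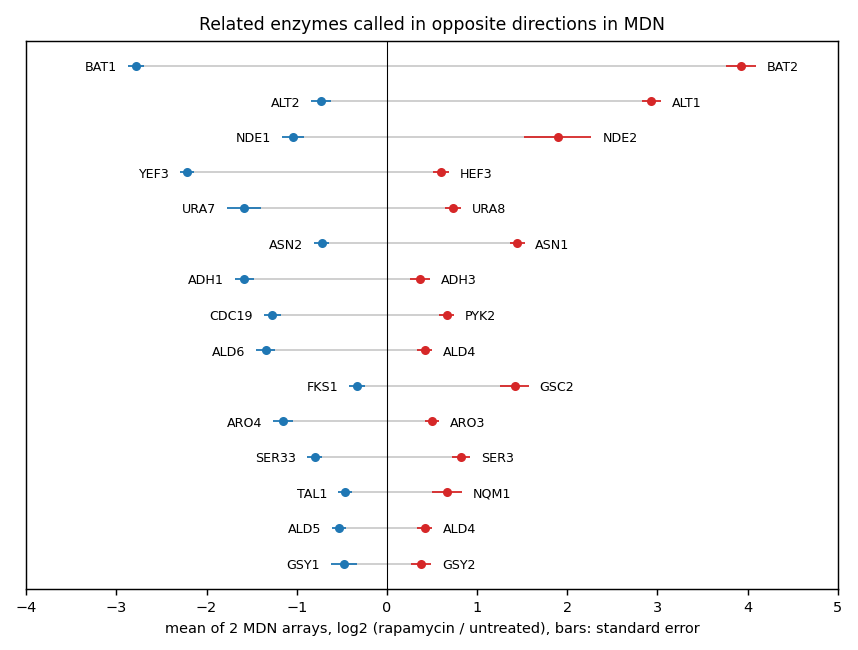
Mean log2 ratio of rapamycin over untreated on the 2 MDN arrays (x axis), with standard errors, for the 15 pairs of related enzymes called with opposite signs; blue is the member that fell, red the member that rose, and each row is a pair. The pair BAT1 and BAT2 spans from -2.79 to 3.93, and the narrowest pair is GSY1 and GSY2, from -0.48 to 0.38.

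In carbon metabolism, genes of fermentation fell more often than they rose, and genes of the glyoxylate and citric acid cycles rose more often than they fell. In glycolysis and fermentation 18 of 31 fell and 7 rose, with a median of -0.54 against -0.06 in YPD. The difference was called lower in MDN for 14 and higher for 3. ADH1 read -1.47 and -1.69, and ALD6, the cytosolic aldehyde dehydrogenase, read -1.25 and -1.43. The genes that rose included GPM2, a phosphoglycerate mutase paralog, at 1.51 and 1.23, GLK1, glucokinase, at 0.77 and 0.72, and PDC6, a minor pyruvate decarboxylase, at 1.04 and 1.66. Of 17 hexose transporters and sensors only HXT5, a transporter linked to slow growth, rose, at 2.50 and 1.96, with 0.19 in YPD and a difference of 2.03 that was called. MDH2, the cytosolic malate dehydrogenase of gluconeogenesis, read 2.42 and 2.03 and CIT2, peroxisomal citrate synthase, 2.24 and 2.01, both called. ADR1, an activator of genes for non-fermentable carbon sources, read -3.47 and -4.06, the lowest of its list of 14, in which 7 rose and 2 fell, and as for YBT1 the identity of its probe could not be checked. In the citric acid cycle 12 of 14 rose with none lower. Respiratory chain and ATP synthase genes rose in 18 of 34 and fell in 2, mostly by small amounts. COX5B, the form of cytochrome oxidase subunit 5 made at low oxygen, read 1.04 and 1.08. Trehalose and glycogen genes rose in 8 of 16, with the trehalase NTH1 at 1.22 and 1.05. After removal of MDN array 1 or MDN array 2, glycolytic genes called lower numbered 5 or 8 and higher 2 or 2, and HXT5 was the only hexose transporter called. In the same fits, genes called higher numbered 3 or 3 on the glyoxylate list with 1 lower, 0 or 1 for the citric acid cycle, 1 or 1 for respiration and 1 or 2 for storage carbohydrates.

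Most general stress genes and most oxidative stress enzymes rose. Of 36 general stress genes 30 rose, with the small heat shock protein HSP26 at 3.04 and 2.73 and DCS2, a regulator of messenger RNA decapping, at 2.13 and 1.87. FMP45, a membrane protein, was the only one to fall, by 0.64 ± 0.15. HSP12, a membrane-protecting protein often used as a stress marker, read 0.74 and 0.01 and was not called in MDN (adjusted p = 0.246), whereas it stood at 1.81 in YPD. On the array of MDN over YPD it read 4.02. Of 19 stress and quiescence regulators 8 rose (42.1%), 1 fell (5.26%) and 10 were not called. Over all genes 30.8% rose and 23.3% fell. The activator MSN4 read 1.25 and 0.77. YAP1, the regulator of the oxidative stress response, read 0.77 and 1.04 with a YPD mean of 0.08 and a called difference. PDE1, a cyclic AMP phosphodiesterase, rose by 1.08 ± 0.08. Oxidative stress enzymes rose in 16 of 26 and fell in 2. The peroxiredoxins TSA2 and PRX1 read 2.11 and 1.97, and 1.64 and 1.34, catalase CTT1 averaged 1.58 ± 0.11, and the thioredoxin TRX1 fell by 0.40 ± 0.09. YHB1, a flavohemoglobin that detoxifies nitric oxide, read 0.96 and 1.17 in MDN and stood at -1.44 in YPD. With either MDN array removed (array 1 or array 2), 8 or 17 general stress genes, 2 or 4 stress regulators and 3 or 4 oxidative stress enzymes were called higher and none lower. CTT1 and MSN4 lost their call without MDN array 1, and YAP1 and YHB1 without MDN array 2.

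Chaperones split by compartment. Of 18 cytosolic heat shock proteins and chaperones 16 rose and none fell, with a median of 0.72 in MDN and 0.13 in YPD. For 10 the difference was called higher in MDN and for 1 lower. AHA1, an activator of Hsp90, read 1.41 and 1.07 in MDN with 0.07 in YPD, and HSP42 read 1.78 and 1.41. Of 13 chaperones of the endoplasmic reticulum and mitochondria 3 rose and 2 fell, with a median of -0.05, and LHS1 of the reticulum and MGE1 of mitochondria were at -0.62 ± 0.11 and -0.46 ± 0.08. Proteasome genes rose by small and similar amounts, with 35 of 38 higher, none lower, 2 beyond 2-fold and a maximum of 1.11. In YPD 13 rose and 4 fell, and for 20 of the 38 the difference was called, each time higher in MDN. PRE3, a catalytic core subunit, read 1.10 and 1.12 against 0.43 in YPD. RPN4, the activator of proteasome genes, read 0.93 and 0.72 in MDN and 0.75 in YPD. On removal of MDN array 1 or MDN array 2, 4 or 5 cytosolic chaperones, 0 or 1 organelle chaperones and 4 or 6 proteasome genes were called higher, with none lower.

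The vacuole's own machinery also rose in count. Of 12 vacuolar proteases and inhibitors 10 rose, 7 at least 2-fold. Aminopeptidase APE1, which reaches the vacuole through a form of autophagy, read 2.35 and 2.46, and the bleomycin hydrolase LAP3, which follows it, read 2.18 and 2.17. The inhibitors PBI2, of proteinase B, and TFS1, of carboxypeptidase Y, read 2.44 and 2.07, and 1.81 and 1.48. Proteases and their inhibitors therefore moved the same way. Autophagy genes rose in 22 of 29. ATG7, which activates Atg8 for conjugation, read 1.72 and 1.63, ATG8 itself a mean of 1.55, and ATG17, the scaffold of the starvation-induced site, 1.57 and 1.06. Vacuolar ATPase genes rose in 7 of 15, all under 2-fold, with VMA8 at 0.89 ± 0.10. VMA10 differed from YPD, at 0.84 ± 0.11 in MDN and -0.50 in YPD. Peroxisome genes rose in 12 of 27 and fell in 1, PEX25, and PIP2, an activator of peroxisomal genes, read 1.15 and 1.18. With MDN array 1 or MDN array 2 left out, genes called higher numbered 7 or 8 for proteases and inhibitors, 8 or 8 for autophagy, none for the vacuolar ATPase, and 1 or 2 for peroxisomes.

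Fatty acid and phospholipid genes had no common direction. Of 21 measured, 5 rose (23.8%) and 4 fell (19.0%), below the 30.8% and 23.3% of all genes. The elongases ELO3 and ELO2 fell by 1.56 ± 0.10 and 1.32 ± 0.08. OPI3, a methyltransferase of phosphatidylcholine synthesis, rose by 1.48 ± 0.08, CKI1, choline kinase, rose by 0.90 ± 0.08, and CHO2, which acts just before OPI3, rose by 0.58 ± 0.10 in MDN against -0.70 in YPD. Sterol genes rose more often than all genes, in 11 of 25 (44%), and fell less often, in 2 (8%). ERG27, a keto reductase, read 1.70 and 1.59, and ECM22, a sterol regulator, read -0.89 on both arrays. In the cell wall list 12 of 36 rose (33.3%) and 7 fell (19.4%), near the shares of all genes. In YPD 22 rose and 3 fell, and the difference was called lower in MDN for 19, against 14.6% of all genes. TIP1, a mannoprotein, read 1.73 and 1.66 in MDN with 0.17 in YPD. CWP1, another mannoprotein, read -1.29 and -1.51 with 1.15 in YPD. Of 39 secretory genes 12 rose and 13 fell, 30.8% and 33.3%. As examples, the translocon genes SEC62, SEC63 and SEC66 fell to -0.64, -0.71 and -0.67, SEC72 of the same complex rose to 0.32, and the vesicle fusion and exocytosis genes SEC9, SEC17 and SEC18 rose to 0.50, 0.45 and 0.33. No gene of this list changed 2-fold, and none was called without either MDN array. Median centring moved the secretory counts from 12 higher and 13 lower to 7 and 15. On leaving out MDN array 1 or MDN array 2, phospholipid genes had 2 or 2 higher and 2 or 2 lower, sterol genes 1 or 1 higher and 0 or 1 lower, and the cell wall list 1 or 1 higher and 0 or 1 lower.

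Division genes changed little in MDN, with list medians of 0.05 for cyclins, 0.07 for DNA replication and 0.56 for histones against -0.36, -0.27 and -0.70 in YPD. Histone genes rose in 8 of 11 cases with none lower, though none reached 2-fold, while 9 fell in YPD, and the difference was called for all 11. The centromeric histone CSE4 read 0.99 and 0.79, HHT2, for histone H3, read 0.88 and 0.64, and HHF1, for histone H4, read 0.80 and 0.58 with -1.26 in YPD. No histone was called without either MDN array. Of 23 cyclins and Start regulators 4 rose and 4 fell, 17.4% each way, below the 30.8% and 23.3% of all genes. CLN3, the G1 cyclin upstream of Start, read -0.74 and -0.71, and CLN2, a later G1 cyclin, rose by 0.44 ± 0.10. DNA replication and nucleotide reduction genes rose in 8 of 39 (20.5%) and fell in 6 (15.4%), again below the shares of all genes. RNR4, a small subunit of ribonucleotide reductase, read 1.41 and 1.40 and POL30, the sliding clamp, read -0.47 and -0.40, against 0.42 and -1.60 in YPD. On removal of MDN array 1 or MDN array 2 none of the cyclins and 1 or 3 replication genes were called, the latter all higher.

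Phosphate genes fell in 12 of 20 cases and rose in 2. The acid phosphatases PHO11 and PHO12 averaged -1.97 ± 0.12 and -1.84 ± 0.11, with the caution that their sequences are nearly identical. PHM8, a phosphatase of lysophosphatidic acid and nucleotides, read 1.91 and 2.08 and ran against its list. Of 39 metal genes 12 rose and 10 fell, 30.8% and 25.6%, which is near the shares of all genes. ZRT2, a low-affinity zinc transporter, fell by 1.50 ± 0.09, and the metallothionein genes CUP1-1 and CUP1-2, which are copies, read 1.70 and 1.32, and 1.66 and 1.38. Metallothioneins stood at -0.61 and -0.50 in YPD. The high-affinity iron uptake genes FET3 and FTR1 fell by 0.57 ± 0.08 and 0.58 ± 0.10 while HMX1 rose. Genes of the mating pathway rose in 10 of 25 and fell in 2, STE3 and STE20. STE2, the receptor for alpha factor, read 1.32 and 1.26, PRM1, a fusion protein, read 1.16 and 1.42, and STE3, the receptor for a-factor, read -0.71 and -0.74. When MDN array 1 or MDN array 2 was dropped, genes called lower numbered 3 or 4 for phosphate and 3 or 2 for metals, and genes called higher 1 or 1, and 3 or 3. Mating genes called higher then numbered 2 or 2, with none lower.

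Set against YPD, the larger MDN changes were mostly shared in direction. Of the genes and probes that rose at least 2-fold in MDN, 264 also rose in YPD, 18 were not called there and 6 fell. Of the 471 that fell at least 2-fold, 426 fell in YPD, 24 were not called and 21 rose. In YPD 66.3% of all genes were called, 34.3% higher and 32% lower. Calls of the same sign in both media were made for 40.2% of those tested. Opposite calls were made for 171, or 3.12%, with 90 higher in MDN (1.64%) and 81 lower (1.48%) and a further 10.8% were called in MDN and not in YPD. Those higher in MDN included YHB1, PDC6, CUP1-1, BAP2, HSP30, YOR385W and the genes HHF1 and HHT1 for histones H4 and H3. PDC6 stood at 1.35 ± 0.16 in MDN and -0.81 in YPD, and HSP30, a plasma membrane stress protein, at 1.52 and 0.69 in MDN with -0.71 in YPD. Among those lower in MDN, ADE17 stood at -3.47 and 3.18 in MDN and YPD, SHM2 at -3.84 and 2.33, GCV2 at -1.89 and 3.16, and ARO9, an aromatic transaminase, at -1.11 and 4.01. ADE4 was at 1.37, ADE1 at 1.78 and ADE2 at 1.42 in YPD. On the single array of MDN over YPD without drug, ADE17 read 3.23 and SHM2 2.74. The comparisons of MDN over YPD and of rapamycin in MDN may share untreated MDN RNA, which the labels do not say, so these values are set side by side only.

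The difference between the media was called for 1620 genes and probes, 29.5% of those tested, 819 of them higher in MDN (14.9%) and 801 lower (14.6%). These calls need all 4 arrays. With any 1 array left out limma called none of them after adjustment, and between 1495 and 2159 passed at an unadjusted p under 0.05. The 10 genes with the most positive difference include several that fell in YPD and were not called in MDN. TAT1, a permease for valine, leucine and tyrosine, read 0.18 and 0.24 in MDN and stood at -2.63 in YPD, and OPT1, a glutathione and peptide transporter, read 0.23 and 0.25 with -2.49 in YPD. TAT1 read -4.06 on the array of MDN over YPD. MXR1, a methionine sulfoxide reductase, had the most positive difference, 3.97 ± 0.98, but its error was wide and its MDN value was not called (adjusted p = 0.2). HXT2, a glucose transporter, fell by 0.52 ± 0.10 in MDN and stood at -2.61 in YPD. RMT2, an arginine methyltransferase acting on a ribosomal protein, fell by 1.64 ± 0.13 in MDN and stood at -4.19 in YPD. At the negative end GAP1 differed by -7.09 ± 0.15, MEP2 by -5.17 ± 0.21, ARO10 by -4.86 and SNZ1, of vitamin B6 synthesis, by -4.28. SNZ1 read 0.53 and 1.13 in MDN and so rose there too, whereas ARO10, a decarboxylase of fusel alcohol synthesis, read -0.47 and -0.45 and fell.

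**Figure D5:**
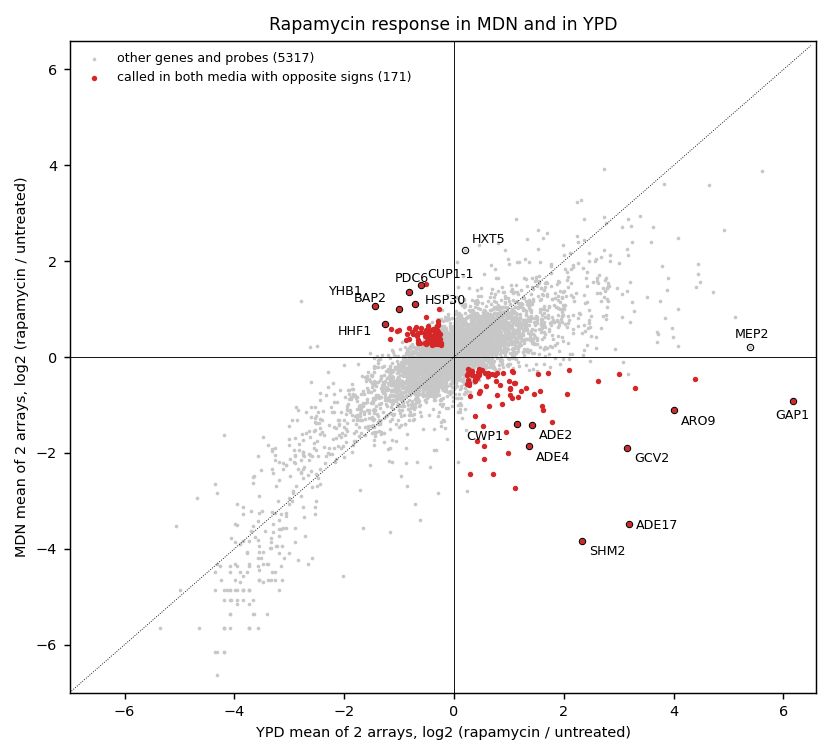
Mean log2 ratio of rapamycin over untreated in YPD (x axis, 2 arrays) against MDN (y axis, 2 arrays) for 5488 genes and probes; red marks the 171 called in both media with opposite signs and the dotted line equal values. ADE17 and SHM2 lie lowest among the red points, at -3.47 and -3.84 in MDN, and GAP1 lies farthest right.

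Genes that sit next to each other on a chromosome were compared as a further description. Divergent neighbours, which share the stretch between their starts, correlated in their MDN means with r = 0.197 over 1065 pairs, tandem neighbours with r = 0.124 over 1989 and convergent ones with r = 0.080 over 1109. Genes share neighbours and paralogs, so these pairs are not independent. Neighbours that both rose at least 2-fold numbered 3 of 1065 divergent, 13 of 1989 tandem and 5 of 1109 convergent pairs. Those that both fell at least 2-fold numbered 20, 22 and 13. Of all genes 5.25% rose and 8.58% fell that far, so some such pairs also arise between unrelated genes. The counts are not read as a property of neighbours. BAT2 at 3.93 lies beside YJR149W at 2.05, MLS1 at 3.25 beside DMA2 at 1.04, ALD3 at 2.17 beside its paralog ALD2 at 1.96, and PDC6 at 1.35 beside CTT1 at 1.58. UGA3 at 1.34 lies beside UGX2 at 1.86. At the low end RPS16B at -6.14 starts beside RPL13A at -5.14.

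A few members outside the test also held large changes. The 97 members without a value on some YPD array included 84 named genes. When all members were fitted, 13 of the 97 rose and 16 fell, smaller shares than the 30.8% and 23.3% of the genes tested. INO1, inositol-3-phosphate synthase, the enzyme that makes inositol, read 2.54 and 2.25 and rose by 2.40 ± 0.11, against -0.12 on the YPD array that measured it. It read -2.94 on the array of MDN over SCD. DRS1, a helicase of 60S assembly, read -3.32 and -3.18 and fell. A further 408 named genes had a value on only 1 of the MDN arrays, with 26 of them below -1 and 13 above 1. RPL10 read -4.06 there and RPL22A -3.64, and at the high end PXA2, a peroxisomal fatty acid transporter subunit, read 3.70, YAT2, a carnitine acetyltransferase, 3.17, and ATG39, a receptor for autophagy of the nucleus, 2.27. These values have no replicate.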

How the data were processed

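Values were used as deposited by the authors: log2 ratios per probe and array, with Cy5 on the rapamycin or MDN sample per the labels. Back-transformed, 100% are multiples of 0.01 within 0.0001, which gave the scale, and the lowest value possible is -6.64. How arrays were scanned, background-corrected, normalized and filtered is not given in the sources used here. Medians per array were 0.04 and 0.07 for rapamycin in MDN, 0.01 and 0.00 in YPD, -0.06 for MDN over YPD and -0.09 for MDN over SCD, so the method of centring stays unknown. At most 86 probes of an MDN array had a ratio of 0.05 or less, where steps of 0.01 are coarse. The number of arrays limits the precision.

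Gene names came from the platform annotation: 5595 had 1 symbol, 615 are unnamed here and none had several. All 5595 matched the RefSeq gene table by gene number, which also gave neighbouring genes. Probes of the 34 genes with several were averaged. Near-identical copies may share a signal.

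Using lmFit and eBayes of limma 3.58.1 (R 4.3.3), a mean was fitted per medium to the 4 rapamycin arrays, for 5488 genes and unnamed probes with values on all 4, of which 4996 were named. Tests were two-sided for each medium and for MDN minus YPD, with an adjusted p under 0.05 as a call. Residual degrees of freedom were 2, with 3.00 more from the prior. Standard errors were typically 0.096 (a medium) and 0.136 (the difference). No pseudocount was used. On simulated data the MDN test recovered 48%, 92%, 100% and 98% of genes changed 1.5-, 2-, 4- and 8-fold. The difference test recovered 2%, 62%, 94% and 94%. The simulated noise was normal, with variances drawn from the prior of this same fit. Only 50 genes of each size were changed and 5288 were not, whereas 54.1% were called in the data. Ratio steps and dye effects were left out. The shares therefore describe the test under its own model and not its sensitivity here.

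The members, the 59 gene lists, the pairs, the fixed genes and the tests were chosen with earlier results of these data known. The naming rule took the 15 highest and 15 lowest called in MDN, the 10 at each end of the difference, 8 of each sense called oppositely in the media, up to 4 members of each list with called members that went against it, pairs called with opposite signs, the 5 genes with the widest array gap, and a fixed set. Of these, the text describes those that its comparisons turn on. Genes outside the rule, given as examples of neighbours, of copies of ribosomal protein genes or of members not tested, were picked after their values were seen. A planned search of promoters for motifs was not run. Alternatives were median centring, equal array scale, all members, probes separately, ratios floored at 0.05, a replicate block, a robust prior, MDN arrays alone, a rule of 2-fold on both arrays, and each array left out in turn. A crossed block was added after seeing the data. The labels tie array numbers to no shared origin, so the numbers were not used as pairs (correlation of their deviations -0.103 over 5488 genes). Figures used matplotlib 3.10.9 in Python 3.11.15.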

Additional observations from a re-analysis of the deposited data

Results flagged for a closer look

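The response to rapamycin differed between MDN and YPD by the test of the difference for 1620 genes and probes, and the genes named by rule for it are given here as MDN minus YPD on the log2 scale. Higher in MDN were MXR1 at 3.97, TAT1 at 2.84, OPT1 at 2.73, RMT2 at 2.56, YHB1 at 2.50, PDC6 at 2.16 and HXT2 at 2.09. The metallothionein copies CUP1-1 and CUP1-2 differed by 2.12 and 2.02, HXT5 by 2.03 and BAP2 by 2.00. The histone genes HHF1 and HHT1 differed by 1.95 and 1.22, HSP30 by 1.81 and YOR385W by 1.31.

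Lower in MDN were the nitrogen permeases GAP1 at -7.09 and MEP2 at -5.17 and the allantoin gene DAL3 at -3.85. Purine and one-carbon genes followed, with ADE17 at -6.65, SHM2 at -6.16, GCV2 at -5.05, ADE4 at -3.23, ADE1 at -3.14 and ADE2 at -2.84. The aromatic breakdown genes ARO9 and ARO10 differed by -5.12 and -4.86, SNZ1 by -4.28, HIS4 by -3.93 and the mannoprotein gene CWP1 by -2.55. Every one of these 29 genes lost the call when any 1 of the 4 arrays was left out.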

How the results depend on the processing

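For the MDN response, 2968 calls became 2958 with median centring, 3290 at equal array scale, 2972 with all members, 2984 by probe, 2966 with ratios floored, 3015 with a robust prior and 2611 with the MDN arrays alone. The split moved under median centring, to 1498 higher and 1460 lower, and at equal array scale, to 1672 and 1618. With an array left out the calls ranged from 540 to 2607, and the rule of 2-fold on both arrays kept 667. For YPD, 3638 calls ranged from 2388 to 2891 with an array left out. For the difference, 1620 calls became 0 with any of the 4 arrays left out, so the range is 0 to 0, with 1495 to 2159 at an unadjusted p under 0.05 in limma, and they became 1680 with median centring, 1470 at equal scale, 1719 with the robust prior and 1569 with the floor. Under median centring the difference split 750 higher and 930 lower, and at equal scale 605 and 865, against 819 and 801. With the replicate block, calls numbered 2709 in MDN, 3417 in YPD and 1185 for the difference, and with the pairing crossed 2830, 3532 and 1387. Array numbers share no stated origin, and 2 pairs are too few to show one. No named gene reversed its direction with a call under any alternative. Of 383 genes that the naming rule selected, 223 lost their MDN call without MDN array 1 and 215 without MDN array 2, where the lone array is assumed to vary like the YPD arrays, which is fewer samples by construction. Each of the 29 differences named by rule kept its call with median centring, equal scale, the floor, the robust prior and either block, and these were not refitted by probe. Values near -5.64 and below are limited by the 2 decimals of the deposited ratios, so the order among the lowest genes is uncertain.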

Other observations

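The list for aromatic and branched-chain breakdown to fusel alcohols, not described above, held both rises and falls in MDN. Of its 11 genes 5 rose (45.5%) and 4 fell (36.4%), against 30.8% and 23.3% of all genes. In YPD 6 rose and 4 fell, where 34.3% and 32% of all genes did. With so few genes, the mix is not read as a property of the pathway. ARO9, the transaminase that starts the route, read -1.25 and -0.97, and ATF2, which forms acetate esters of the alcohols, read -1.36 and -0.92. SFA1, a dehydrogenase that can reduce the aldehydes, fell by 0.50 ± 0.11. BAT2 and PDC6 of the same list rose, as the report gives. Without MDN array 1 or MDN array 2, 3 or 3 genes were called higher and 0 or 1 lower.

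Vitamin B6 and thiamine genes rose in 11 of 21 cases and fell in 2. SNO1, a partner of SNZ1, read 0.82 and 1.16 and THI20, a kinase of thiamine synthesis, read 1.08 and 1.02. The biotin permease gene VHT1 read -0.76 and -0.67 in MDN and stood at 0.47 in YPD. Of 24 multidrug transporters and regulators 3 rose (12.5%) and 4 fell (16.7%), with the regulator PDR1 at 0.52 on both arrays. Of 14 meiotic genes 2 rose (14.3%) and 3 fell (21.4%). The shares of both lists were below the 30.8% and 23.3% of all genes. Without MDN array 1 or MDN array 2, 1 or 1 vitamin gene was called higher and none lower, YBT1 was the only multidrug gene called, and no meiotic gene was.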
